A study of Homo sapiens with 18 samples.

Results

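The 9 genes described here encode the machinery that makes, carries and loads peptides for class I presentation: the immunoproteasome subunits PSMB8, PSMB9 and PSMB10, the peptide transporter TAP1 and TAP2, the loading factor TAPBP, the trimming peptidases ERAP1 and ERAP2, and the light chain B2M. They were chosen by symbol, as every probe set of Affymetrix U133 Plus 2.0 arrays that the platform annotation gives to 1 of these genes alone. This took 24 of 41091 such probe sets, and 9 of the 19775 genes they stand for. The arrays came from CWR22Rv1 and DU145, both established human prostate cancer cell lines, transfected with Lipofectamine 2000 and siRNA and harvested after 48 h. Each line had 3 groups of 3 arrays: siRNA against Stat5a/b, siRNA against Stat3, and a scrambled siRNA (scramble) as the control. All 6 groups thus carry a transfection and an siRNA, and no untransfected cells or interferon-treated cells were analysed here. The triplicates were not pooled, and nothing in the labels ties them to separate cultures. The spread that the p-values measure is that between the arrays, and it may be technical.

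Cells cut their own proteins with the proteasome. Interferons induce PSMB8, PSMB9 and PSMB10, which take the place of the constitutive catalytic subunits PSMB5, PSMB6 and PSMB7 and change which peptides are made. The TAP1 and TAP2 heterodimer pumps peptides into the endoplasmic reticulum, where TAPBP (tapasin) bridges it to empty class I molecules, ERAP1 and ERAP2 shorten peptides from the N terminus, and B2M pairs with the heavy chain so that the complex can reach the surface. Most of these genes are known interferon targets, and loss of their expression is a known route by which tumours escape T cells.

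The promoter sequences are shown because interferon acts on such genes through short repeats of GAAA. They were picked once the members' levels had been seen to part between the lines. Whether the motif has a part in that difference was not tested. RefSeq promoter windows (GRCh38.p14, 250 bases before to 50 after a start site) were found for all 9 genes, 13 windows in all. They were searched on both strands for GAAANNGAA, the core of an interferon-stimulated response element, where 1 match may overlap the next. The motif stood in 8 of 13 windows and in 8 of 9 genes, all but PSMB9, against 8.11% of all 35116 windows and 9.86% of 27305 genes. Each stretch below holds the matches in capitals with their flanks, 5′ to 3′ on the gene's strand. Capitals that read TTC first are matches on the opposite strand.
B2M (chr15:44711361-44711399, plus strand): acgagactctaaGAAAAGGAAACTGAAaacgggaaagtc
TAP1 (chr6:32853811-32853849, minus strand): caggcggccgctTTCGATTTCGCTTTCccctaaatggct
TAP2 (chr6:32838777-32838809, minus strand): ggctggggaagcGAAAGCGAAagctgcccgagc
TAPBP (chr6:33314072-33314110, minus strand): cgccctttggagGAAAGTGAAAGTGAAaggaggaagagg
PSMB8 (chr6:32844030-32844062, minus strand): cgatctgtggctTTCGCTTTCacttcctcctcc
PSMB10 (chr16:67936851-67936883, minus strand): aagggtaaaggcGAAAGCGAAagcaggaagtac
ERAP1 (chr5:96807922-96807954, minus strand): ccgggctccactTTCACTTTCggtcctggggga
ERAP2 (chr5:96876458-96876490, plus strand): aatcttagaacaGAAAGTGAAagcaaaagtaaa

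In B2M, TAP1 and TAPBP a pair of matches overlapped, so that the capitals form a longer run. The match nearest a start site began 3 bases before it in PSMB8 and 3 bases after it in ERAP1, and the farthest began 144 bases before it in B2M. TAP1 and PSMB9 are neighbours transcribed away from each other from start sites 488 bases apart, and the TAP1 match lies between these sites. The GAS motif TTCNNNGAA, the form bound by STAT dimers, reads the same on both strands. It stood in 2 of 9 genes, 189 bases before a TAP1 start and 65 bases before a PSMB8 start, against 7.66% of windows and 9.38% of genes. A match describes letters in these windows, and no binding was measured.

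Values are log2 expression per probe set as the authors deposited them, and a gene is represented by its brightest probe set, by mean over the 18 arrays. Arrays of a group correlated at 0.993 to 0.998 over genes. The median SD of a gene within a group was 0.0724 to 0.0824 in CWR22Rv1 and 0.112 to 0.126 in DU145. Epithelial markers (KRT8, KRT18, KRT19, EPCAM, CDH1) had group means of 10.06 to 12.69 in CWR22Rv1 and 8.92 to 13.07 in DU145. Of 5 leukocyte markers, the defining PTPRC lay at 3.08 to 3.16 in CWR22Rv1 and 2.96 to 3.10 in DU145, and CD14 at 4.31 in CWR22Rv1 scramble and 6.12 in DU145 scramble. The fibroblast markers ran to 8.12 in CWR22Rv1, set by LUM. The siRNA targets changed as follows: STAT3 by -1.13 in CWR22Rv1 and -1.62 in DU145 with Stat3 siRNA, and STAT5B by -0.91 in CWR22Rv1 and -1.36 in DU145 with Stat5a/b siRNA, all past the test. For STAT5A the Stat5a/b siRNA changes of -0.34 in CWR22Rv1 and -0.30 in DU145 did not pass it (adjusted p = 0.146 and 0.101).

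Under scramble, all 9 genes were lower in CWR22Rv1 than in DU145. The gap ran from 1.5-fold for B2M to 108-fold for ERAP2, and on no gene did the arrays of the lines overlap. Of all genes, 27.0% were called lower in CWR22Rv1. The median difference was -1.76 over the 9 genes and 0.033 over all genes. Each comparison was tested with limma in 1 model over the 18 arrays and called at an adjusted p under 0.05 (Benjamini-Hochberg, over all 19775 genes). In these bulk samples fewer expressing cells and less RNA per cell cannot be told apart, here and in every comparison that follows.

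The widest gaps were those of ERAP2, PSMB8 and PSMB9. PSMB8, which provides the chymotrypsin-like activity of the immunoproteasome, measured 3.69, 4.02 and 3.68 in the CWR22Rv1 scramble arrays, against 9.54, 9.45 and 9.50 in the DU145 scramble arrays. The difference was -5.70 ± 0.14 (SE, adjusted p = 1.9e-15), 52.1-fold, and 57 of 19775 genes had a larger drop. PSMB9, the subunit encoded beside TAP1, measured 5.59, 5.64 and 5.43 in CWR22Rv1 and 9.23, 9.16 and 8.91 in DU145. That is a difference of -3.55 ± 0.16 (adjusted p = 4.8e-12), 11.7-fold. Neither gene's values approached those of the other line on any array.

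ERAP2 measured 2.86, 2.95 and 2.91 in CWR22Rv1 scramble arrays and 9.64, 9.69 and 9.65 in DU145 scramble arrays, a difference of -6.75 ± 0.11 (adjusted p = 1.5e-17). A larger drop was seen for 17 genes. The 5 ERAP2 probe sets were each lower in CWR22Rv1. The deposited scale started at 1.54, with array medians of 5.16 to 5.2, and no detection calls were used. How far the CWR22Rv1 values of ERAP2 and PSMB8 lay above background is therefore unknown, and so is the size of the fold beyond it.

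The transporter, the loading factor and the other peptidase differed less. TAP1 was 2.22-fold lower in CWR22Rv1 (8.10 ± 0.0018 against 9.25 ± 0.042, SD, n = 3 each). TAP2 was 3.39-fold lower (7.59 ± 0.048 against 9.35 ± 0.055), and TAPBP 3.55-fold lower (8.61 ± 0.011 against 10.44 ± 0.12). PSMB10, the inducible counterpart of PSMB7, was 1.8-fold lower (7.58 ± 0.076 against 8.43 ± 0.12). ERAP1 was 1.84-fold lower (7.16 ± 0.12 against 8.04 ± 0.14). B2M, at 12.35 ± 0.019 against 12.94 ± 0.12, had the smallest gap, with adjusted p = 1.1e-06. Over probe sets, 20 of the 24 passed the test as lower and 0 as higher. The exceptions were 1 of 4 probe sets of TAP2 and 3 of 5 of ERAP1, whose group means lay at 2.75 to 4.71.

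The rest of the pathway did not move as a block between the lines. The class I heavy chains fell with the 9 genes, 5 of 5 measured, with differences of -2.81 for HLA-B, -2.66 for HLA-C, -2.55 for HLA-G, -2.49 for HLA-F and -1.45 for HLA-E. These genes are near copies of each other, so their probe sets may share signal. The constitutive catalytic subunits differed by 0.32 ± 0.063 for PSMB5, -0.27 ± 0.056 for PSMB6 and -0.66 ± 0.051 for PSMB7, all past the test. Of 10 other 20S subunits, 1 was higher and 5 lower, with a median of -0.11. Of the 5 loading chaperones, 4 were higher and 0 lower. Among the higher ones were the lectin chaperones CALR (0.54 ± 0.091) and CANX (0.26 ± 0.051) and the tapasin homologue TAPBPL (0.47 ± 0.10). Of all 19775 genes, 5926 were called higher in this comparison and 5335 lower. The lists hold few genes, and whether any of them differs from all genes was not tested.

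Transcription factors of class I genes were mostly lower in CWR22Rv1, 6 of 8 measured, with 1 higher. The background for this and the lists that follow is 5335 lower and 5926 higher of all 19775 genes. IRF1, an activator of the PSMB9 and TAP1 promoter region, differed by -2.70, RFX5 by -2.04, the class I transactivator NLRC5 by -1.91 and IRF9 by -1.45, and RFXAP was 1.17 ± 0.11 higher. Among interferon receptors and kinases, 4 of 7 were lower and 1 higher, and the kinase JAK1 differed by -4.12. Of 30 interferon-stimulated genes outside presentation, 19 were lower and 6 higher, with a median of -0.84. Class II genes, which present to CD4 T cells, were lower in 5 of 6, and the peptide exchange subunit HLA-DMA differed by -3.88.

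**Figure D1:**
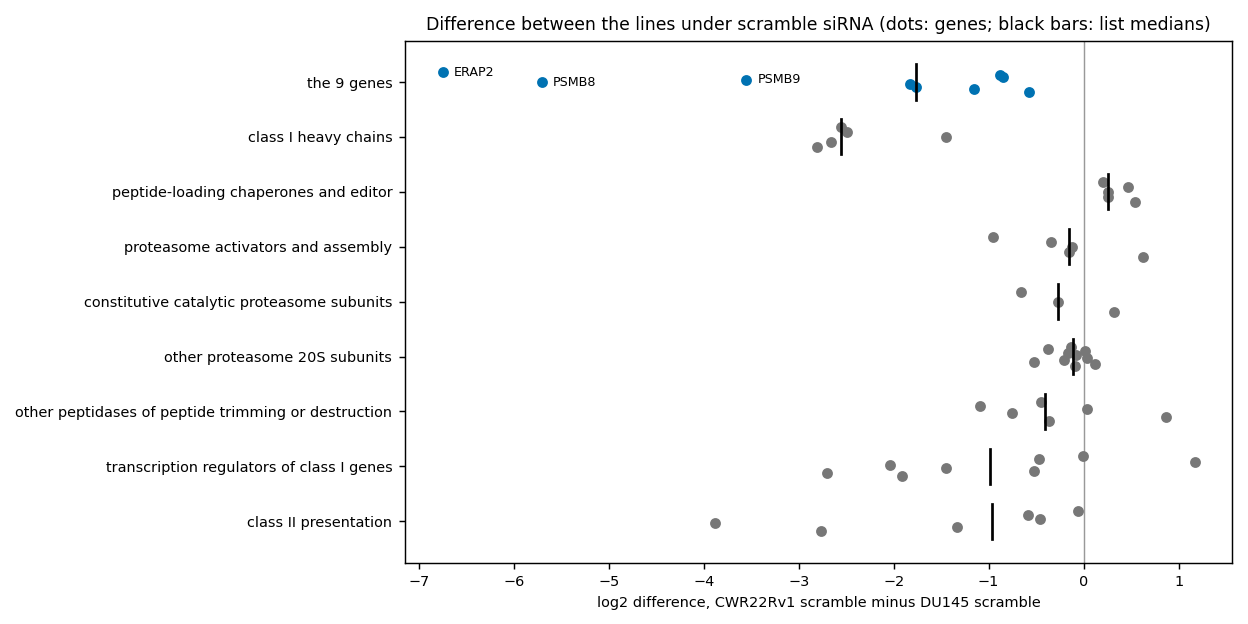
Log2 difference of CWR22Rv1 scramble minus DU145 scramble (x axis) for each gene of the presentation lists (rows), with a dot per gene and a black bar at the list median. The 9 genes all lie left of 0, with ERAP2, PSMB8 and PSMB9 at -6.75, -5.70 and -3.55, the class I heavy chains lie between -2.81 and -1.45, and the constitutive catalytic subunits lie between -0.66 and 0.32.

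The order of the groups followed the line for every gene: the 3 DU145 group means stood above the 3 CWR22Rv1 means in all 9. Within a line the arrays of neighbouring groups mostly overlapped, for TAPBP, PSMB8 and PSMB9 at every step within both lines. ERAP1 came closest to a full separation, since its DU145 groups ran Stat3 siRNA, Stat5a/b siRNA, scramble with no overlap and CWR22Rv1 Stat3 siRNA stood clear of both other CWR22Rv1 groups.

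**Figure D2:**
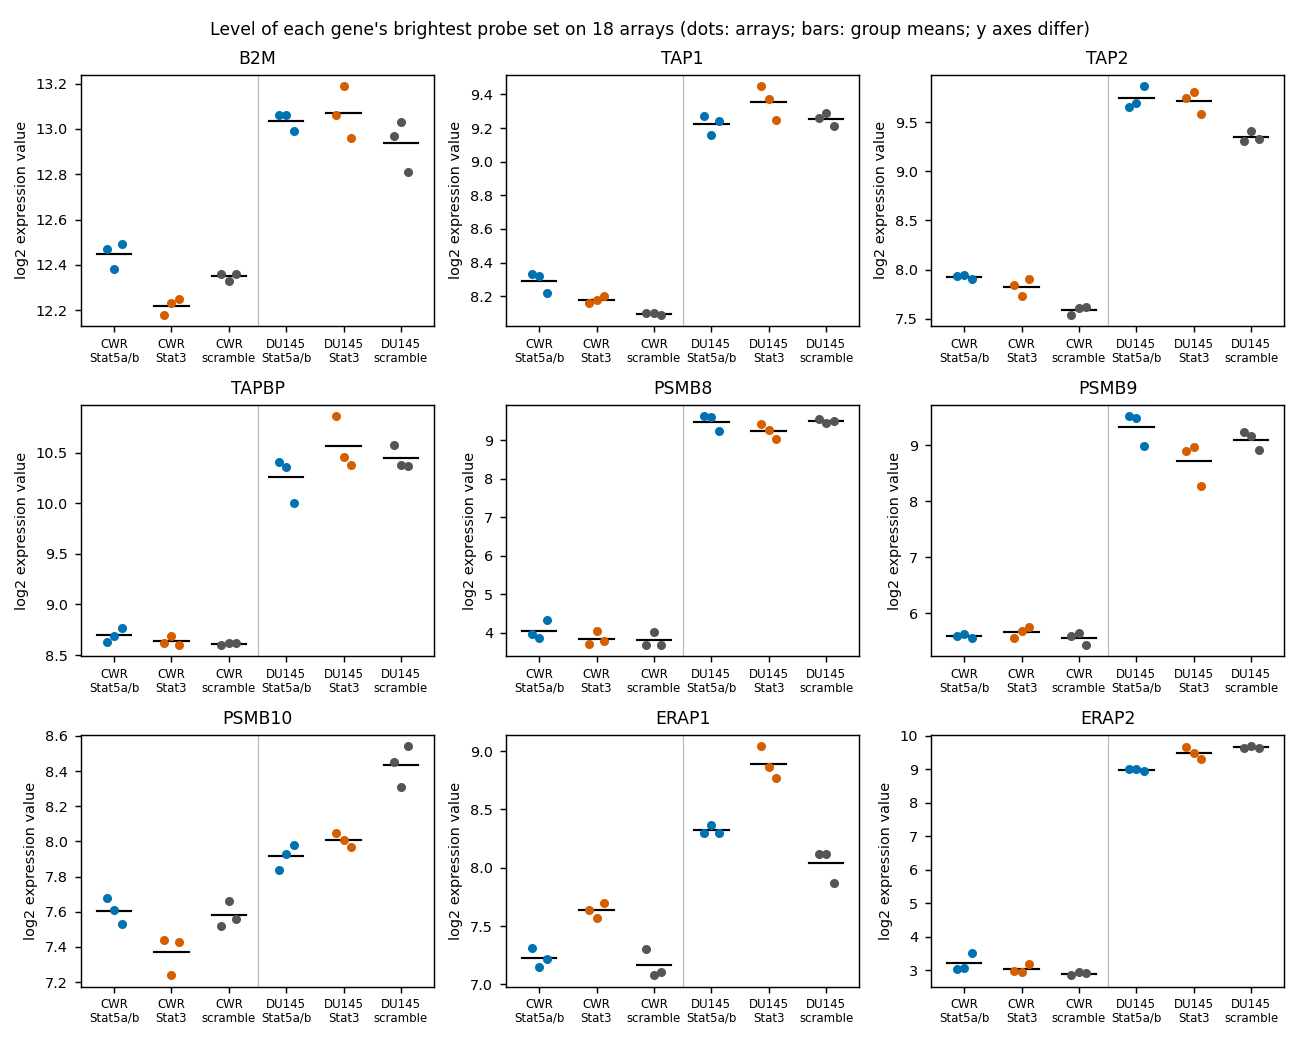
Log2 expression value (y axis, a scale of its own per panel) of each of the 9 genes in the 6 groups (x axis, CWR for CWR22Rv1), with a dot per array and a bar at the mean of 3. The lines part in every panel, by most in ERAP2, PSMB8 and PSMB9, and within DU145 the Stat3 siRNA arrays of ERAP1 (8.77 to 9.04) lie above its scramble arrays (7.87 to 8.12).

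The siRNA changes were at most 0.85 on the log2 scale, for ERAP1, whose difference between the lines was of like size (-0.88 ± 0.086). In DU145, Stat5a/b siRNA raised 2 of the 9 genes (TAP2, ERAP1) and lowered 2 (PSMB10, ERAP2), where 11.8% of all genes were called higher and 12.5% lower. Stat3 siRNA in DU145 also raised TAP2 and ERAP1 (2 genes) and lowered 1 (PSMB10), where 7.51% of all genes were called higher and 8.25% lower. In CWR22Rv1, Stat5a/b siRNA raised 1 gene (TAP2) and lowered 0, where 3.16% of all genes were called higher and 3.30% lower. Stat3 siRNA in CWR22Rv1 raised 1 (ERAP1) and lowered 0, where 2.75% were called higher and 2.02% lower. These are counts of a few genes, and nothing particular to the group was tested. The comparisons within a line share their scramble arrays, so TAP2, ERAP1 and PSMB10 appearing under both siRNAs in DU145 are not independent of each other.

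Groups whose arrays did not overlap scramble at all were seen for 4 to 6 of the 9 genes. In CWR22Rv1 this held for 5 of 9 genes with Stat5a/b siRNA (31.1% of all genes) and for 6 of 9 with Stat3 siRNA (32.3%). In DU145 it held for 4 of 9 with Stat5a/b siRNA (34.4%) and for 4 of 9 with Stat3 siRNA (26.2%). All 5 in CWR22Rv1 with Stat5a/b siRNA lay above scramble (B2M, TAP1, TAP2, TAPBP, ERAP2). The mean of the 9 genes over scramble was 0.14, 0.11 and 0.21 on those 3 arrays, and 0.05, 0.07 and 0.13 on the Stat3 siRNA arrays of that line. In DU145 it was 0, 0 and -0.13 with Stat5a/b siRNA and 0.16, 0.08 and -0.13 with Stat3 siRNA.

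**Figure D3:**
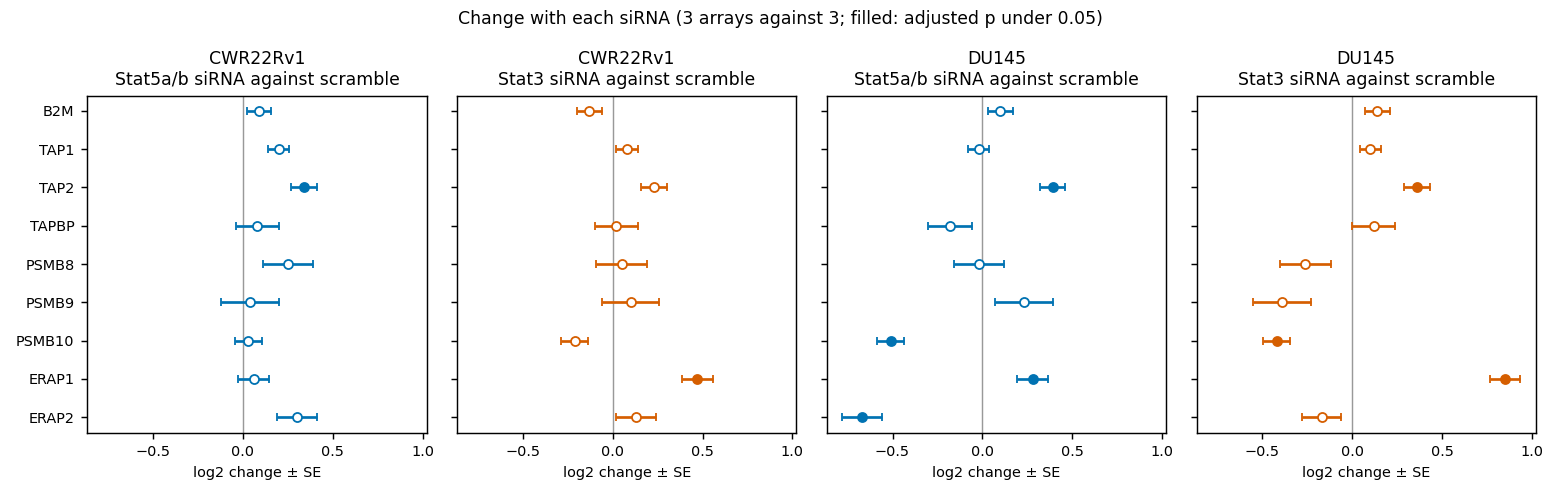
Log2 change of the 9 genes (rows) with Stat5a/b or Stat3 siRNA against scramble in each line (panels), as estimate ± SE from limma, with filled points at an adjusted p under 0.05. TAP2 is above 0 in all 4 panels, ERAP1 moves most with Stat3 siRNA, and PSMB10 lies below 0 with both siRNAs in DU145.

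Among the proteasome subunits PSMB10 changed, in DU145. It measured 7.84, 7.93 and 7.98 with Stat5a/b siRNA, 8.05, 8.01 and 7.97 with Stat3 siRNA, and 8.45, 8.31 and 8.54 with scramble. Both siRNA groups lay wholly below scramble and overlapped each other. The changes were -0.51 ± 0.075 (adjusted p = 1.2e-04) with Stat5a/b siRNA and -0.42 ± 0.075 (adjusted p = 1.0e-03) with Stat3 siRNA. In CWR22Rv1 PSMB10 measured 7.68, 7.61 and 7.53 with Stat5a/b siRNA, 7.44, 7.24 and 7.43 with Stat3 siRNA, and 7.52, 7.66 and 7.56 with scramble. The Stat5a/b siRNA arrays overlapped scramble there (0.03 ± 0.075), and the Stat3 siRNA arrays lay below it (-0.21 ± 0.075, adjusted p = 0.149).

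PSMB9 differed between the siRNAs in DU145, while its changes against scramble did not pass the test there. It measured 9.52, 9.49 and 8.98 with Stat5a/b siRNA, 8.89, 8.97 and 8.27 with Stat3 siRNA, and 9.23, 9.16 and 8.91 with scramble. Replicate 3 was the lowest array of each group. Stat5a/b siRNA stood 0.62 ± 0.16 above Stat3 siRNA (adjusted p = 0.0112). Leaving out Stat3 siRNA replicate 3 gave 0.40 (limma, adjusted p = 0.0505), leaving out Stat5a/b siRNA replicate 1 gave 0.52 (adjusted p = 0.0558) and leaving out its replicate 2 gave 0.54 (adjusted p = 0.0509). With DU145 fitted alone the adjusted p was 0.0704. Against scramble the changes were 0.23 ± 0.16 with Stat5a/b siRNA and -0.39 ± 0.16 with Stat3 siRNA (adjusted p = 0.347 and 0.125). Without replicate 3 of every group both passed the test, at 0.31 (adjusted p = 0.0143) and -0.27 (adjusted p = 0.0417). With the replicate number as a block within each line, the Stat3 siRNA change of -0.39 passed the test (limma, adjusted p = 0.00762). Whether replicate numbers mark pairs is not known. In CWR22Rv1 all 9 PSMB9 arrays lay between 5.43 and 5.75.

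PSMB8 passed the test in no siRNA comparison. Its changes were -0.02 ± 0.14 with Stat5a/b siRNA and -0.26 ± 0.14 with Stat3 siRNA in DU145, and its CWR22Rv1 arrays ran from 3.68 to 4.32. Over the 18 arrays, with each line's mean taken off, PSMB8 and PSMB9 correlated at r = 0.60, while r was -0.09 between PSMB9 and PSMB10 and 0.14 between PSMB8 and PSMB10. These arrays share the groups and the normalisation, so r describes them only. The constitutive subunits PSMB5, PSMB6 and PSMB7 were called in 0 of the 4 comparisons with scramble. The proteasome activator subunit PSME1, also an interferon target, rose by 0.22 ± 0.060 with Stat5a/b siRNA and by 0.28 ± 0.060 with Stat3 siRNA in CWR22Rv1, and by 0.29 ± 0.060 with Stat5a/b siRNA in DU145. With Stat3 siRNA in DU145 its change was 0.18 ± 0.060 (limma, adjusted p = 0.0524), with all arrays above scramble. Among the 5 measured activator and assembly genes, 1 was also called lower with Stat5a/b siRNA in each line. Of all genes, 12.5% were called lower with it in DU145 and 3.30% in CWR22Rv1. In DU145 the lower gene was PSME3, at -0.36 ± 0.087 (limma, adjusted p = 0.00588).

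Of the transporter subunits, TAP2 rose and TAP1 did not pass the test in the main model. TAP2 measured 9.66, 9.70 and 9.87 with Stat5a/b siRNA, 9.75, 9.81 and 9.58 with Stat3 siRNA, and 9.31, 9.41 and 9.33 with scramble in DU145. In CWR22Rv1 it measured 7.93, 7.94 and 7.90 with Stat5a/b siRNA, 7.84, 7.73 and 7.90 with Stat3 siRNA, and 7.54, 7.61 and 7.62 with scramble. Every siRNA array thus lay above every scramble array of its line. Stat5a/b siRNA raised it by 0.34 ± 0.072 in CWR22Rv1 (adjusted p = 0.00954) and by 0.39 ± 0.072 in DU145 (adjusted p = 8.3e-04). The DU145 rise under Stat3 siRNA was 0.36 ± 0.072 (adjusted p = 0.00232). With Stat3 siRNA in CWR22Rv1 the change was 0.23 ± 0.072 with adjusted p = 0.0829.

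The TAP2 rise passed the test on 1 of its 4 probe sets, 225973_at. On 204770_at the DU145 changes were 0.14 ± 0.13 with Stat5a/b siRNA and 0.24 ± 0.13 with Stat3 siRNA (adjusted p = 0.507 and 0.282 over probe sets), the second with no overlap of arrays, and in CWR22Rv1 they were -0.12 ± 0.13 with Stat5a/b siRNA and -0.24 ± 0.13 with Stat3 siRNA. On 204769_s_at, at 8.74 to 9.14 in DU145, the changes there were 0.17 ± 0.088 with Stat5a/b siRNA and 0.02 ± 0.088 with Stat3 siRNA (adjusted p = 0.204 and 0.934 over probe sets). With the mean of the 4 probe sets the DU145 Stat5a/b siRNA rise was 0.18 (adjusted p = 0.0295), the DU145 Stat3 siRNA change 0.16 (adjusted p = 0.0702) and the CWR22Rv1 Stat5a/b siRNA change 0.16 (adjusted p = 0.124). Without CWR22Rv1 scramble replicate 1 the CWR22Rv1 Stat5a/b siRNA change on 225973_at was 0.31 with adjusted p = 0.054. TAP1, with 1 probe set, changed by 0.20 ± 0.059 with Stat5a/b siRNA in CWR22Rv1 (adjusted p = 0.0639), where all 3 arrays lay above scramble. It passed there with quantile normalisation, cyclic loess and a filter at mean 6 (limma, adjusted p = 0.0416, 0.0357 and 0.0192). It also passed with an intensity trend and with CWR22Rv1 fitted alone (adjusted p = 0.0446 and 0.0216). In DU145 it changed by -0.02 ± 0.059 with Stat5a/b siRNA and by 0.10 ± 0.059 with Stat3 siRNA.

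TAPBP passed the test in no siRNA comparison of the main model on its main probe set. It measured 10.26 ± 0.22 with Stat5a/b siRNA, 10.57 ± 0.26 with Stat3 siRNA and 10.44 ± 0.12 with scramble in DU145, and 8.61 to 8.70 in the CWR22Rv1 group means. Stat5a/b against Stat3 siRNA in DU145 gave -0.31 ± 0.12 (adjusted p = 0.0721), with overlapping arrays. This passed with a filter at mean 6, an intensity trend and a replicate block (limma, adjusted p = 0.0386, 0.0368 and 0.0121). It also passed without Stat3 siRNA replicate 3 (-0.40, adjusted p = 0.0306) and without Stat5a/b siRNA replicate 1 (-0.38, adjusted p = 0.0471). A dimmer probe set, 210294_at, was 0.52 ± 0.13 higher with Stat5a/b than with Stat3 siRNA in CWR22Rv1 (adjusted p = 0.0202 over probe sets), where the main one differed by 0.06 ± 0.12. Among the loading chaperones, CALR fell by 0.57 and the oxidoreductase PDIA3 by 0.24 with Stat5a/b siRNA in DU145. None of the 5 was called in the other 3 comparisons with scramble.

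ERAP1 rose with Stat3 siRNA in both lines. In DU145 it measured 8.30, 8.37 and 8.30 with Stat5a/b siRNA, 9.04, 8.86 and 8.77 with Stat3 siRNA, and 8.12, 8.12 and 7.87 with scramble. The 3 groups did not overlap. Stat3 siRNA raised it by 0.85 ± 0.086 (adjusted p = 4.1e-06), to 180% of scramble on the linear scale. Stat5a/b siRNA raised it by 0.28 ± 0.086 (adjusted p = 0.0242). The call of that smaller rise was lost without scramble replicate 3 (0.20, adjusted p = 0.108), without Stat5a/b siRNA replicate 2 (0.26, adjusted p = 0.078) and with DU145 fitted alone (0.28, adjusted p = 0.0885).

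In CWR22Rv1 ERAP1 measured 7.31, 7.15 and 7.22 with Stat5a/b siRNA, 7.64, 7.57 and 7.70 with Stat3 siRNA, and 7.30, 7.08 and 7.11 with scramble. The Stat3 siRNA arrays stood clear of both other groups, and Stat5a/b siRNA overlapped scramble. Stat3 siRNA raised ERAP1 by 0.47 ± 0.086 (adjusted p = 0.00413). The rise was 0.38 ± 0.12 smaller than in DU145, a difference that did not pass the test (adjusted p = 0.112). Of the Stat3 siRNA effects none of the 9 genes differed between the lines past the test, where 3.00% of all genes did. B2M, PSMB9 and ERAP1 had an unadjusted p under 0.05 there.

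The ERAP1 rise with Stat3 siRNA in DU145 was called on 2 of its 5 probe sets, 209788_s_at and 210385_s_at (0.52 ± 0.13, adjusted p = 0.0157 over probe sets). In CWR22Rv1 the second of these changed by 0.44 ± 0.13 (adjusted p = 0.0962). Another, 214012_at, had its highest arrays elsewhere: it measured 3.28, 3.55 and 3.91 with Stat5a/b siRNA, 2.97, 3.01 and 3.08 with Stat3 siRNA, and 2.99, 3.09 and 3.20 with scramble in DU145. Its change with Stat5a/b siRNA was 0.49 ± 0.12 (adjusted p = 0.00995), low on the scale. With the mean of the 5 probe sets the DU145 Stat3 siRNA rise was 0.28 with adjusted p = 0.0132. The CWR22Rv1 Stat3 siRNA change was then 0.16 with adjusted p = 0.29, and without replicate 3 of every group it was 0.42 on the main probe set with adjusted p = 0.0811. For the Stat5a/b siRNA rise in DU145, leaving out replicate 3 of every group gave 0.21 with adjusted p = 0.151.

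ERAP2, which trims other peptides than ERAP1 and lies next to it in the genome, fell with Stat5a/b siRNA in DU145. It measured 8.96 to 9.01 (8.99 ± 0.027, SD, n = 3) with Stat5a/b siRNA, 9.67, 9.49 and 9.32 with Stat3 siRNA, and 9.64, 9.69 and 9.65 with scramble. The Stat5a/b siRNA arrays lay below all others, at -0.67 ± 0.11 against scramble (adjusted p = 3.0e-04), 62.9% of it. With Stat3 siRNA the change was -0.17 ± 0.11 (adjusted p = 0.36). The other probe sets gave, from the brightest down, -0.16 ± 0.19 on 227462_at, -0.53 ± 0.18 on 1554273_a_at and -0.49 ± 0.19 on 235104_at with Stat5a/b siRNA, not past the test (adjusted p = 0.609, 0.0532 and 0.0872). The dimmest, 1554272_at, averaged 2.85 with Stat5a/b siRNA and 2.68 with scramble. On the main probe set in CWR22Rv1, near the bottom of the scale, the 9 arrays lay between 2.86 and 3.51.

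**Figure D4:**
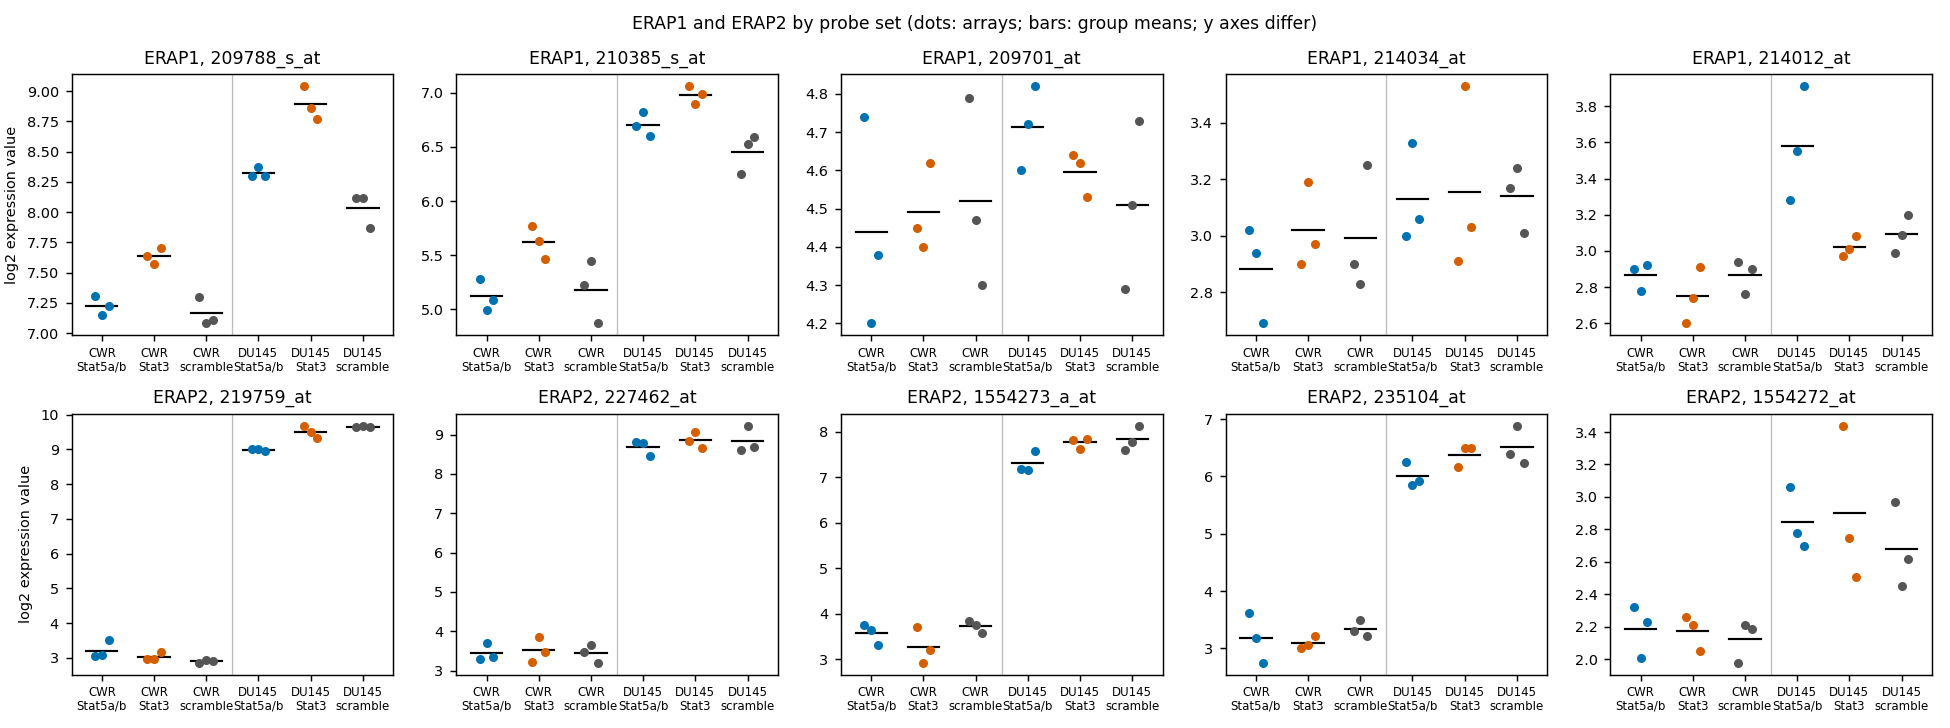
Log2 expression value (y axis, a scale of its own per panel) of the 5 probe sets each of ERAP1 (top) and ERAP2 (bottom), brightest at the left, in the 6 groups (x axis, CWR for CWR22Rv1), with a dot per array and a bar at the mean. The first pair of ERAP1 probe sets is highest with Stat3 siRNA in both lines, 214012_at is highest with Stat5a/b siRNA in DU145, and ERAP2 219759_at is lowest with Stat5a/b siRNA within DU145.

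Set directly against each other in DU145, Stat5a/b siRNA left 1 of the 9 genes higher than Stat3 siRNA (PSMB9) and 2 lower (ERAP1 by 0.57 ± 0.086, adjusted p = 1.5e-04, and ERAP2 by 0.50 ± 0.11, adjusted p = 0.00323), where 11.0% of all genes were called higher and 11.2% lower. The ERAP1 difference was -0.04 (adjusted p = 0.759) with the mean of its 5 probe sets. In CWR22Rv1 it left 0 higher and 1 lower, ERAP1 by 0.41 ± 0.086 (adjusted p = 0.00499), where 4.70% were called higher and 6.05% lower. That ERAP1 difference was -0.20 (adjusted p = 0.0975) with the mean of its probe sets and -0.37 (adjusted p = 0.0585) without replicate 3 of every group. B2M (0.22 ± 0.069) and PSMB10 (0.23 ± 0.075) had adjusted p = 0.0507 and 0.0592 there, with the Stat5a/b siRNA arrays wholly above the Stat3 siRNA arrays. B2M passed the test under 5 alternatives (adjusted p from 0.00523 to 0.0457) and PSMB10 under 3 (0.0109 to 0.0241).

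The measured change with Stat5a/b siRNA differed between the lines for PSMB10 and ERAP2, 2 of the 9 genes, where 11.9% of all genes differed. For PSMB10 the CWR22Rv1 change exceeded the DU145 change by 0.54 ± 0.11 (adjusted p = 0.00412). For ERAP2 it did so by 0.97 ± 0.15 (adjusted p = 9.0e-04), from 0.30 ± 0.11 in CWR22Rv1 and -0.67 ± 0.11 in DU145. The CWR22Rv1 value of ERAP2 is a change near the bottom of the scale, and 1 array, at 3.51, was higher than the other 2, at 3.04 and 3.07. With scramble at 2.91, percentile 7.1 of genes, a fall like that in DU145 might not have registered. The ERAP2 test thus cannot tell an absent response in CWR22Rv1 from a hidden one.

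B2M, the light chain shared by class I molecules, passed the test in no siRNA comparison of the main model. It passed under the alternatives counted above for Stat5a/b against Stat3 siRNA in CWR22Rv1. Its group means were 13.03 ± 0.042 with Stat5a/b siRNA, 13.07 ± 0.12 with Stat3 siRNA and 12.94 ± 0.12 with scramble in DU145. In CWR22Rv1 they were 12.44 ± 0.055 with Stat5a/b siRNA, 12.22 ± 0.036 with Stat3 siRNA and 12.35 ± 0.019 with scramble, with no overlap between any pair. The change against scramble there was 0.09 ± 0.069 with Stat5a/b siRNA (adjusted p = 0.563) and -0.13 ± 0.069 with Stat3 siRNA (adjusted p = 0.38). Another B2M probe set of like brightness, 216231_s_at, changed by 0.08 ± 0.063 with Stat5a/b siRNA and by -0.06 ± 0.063 with Stat3 siRNA.

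Of the 5 heavy chains that pair with B2M, 1 was called with either siRNA in DU145, HLA-E. Of all genes there, 11.8% were called higher and 12.5% lower with Stat5a/b siRNA, and 7.51% higher and 8.25% lower with Stat3 siRNA. HLA-E, the ligand of the NKG2A receptor, measured 10.78, 10.71 and 10.47 with Stat5a/b siRNA, 10.06, 10.15 and 10.31 with Stat3 siRNA, and 10.43, 10.37 and 10.46 with scramble in DU145. It rose by 0.24 ± 0.079 with Stat5a/b siRNA and fell by 0.24 with Stat3 siRNA (adjusted p = 0.0388 and 0.0472), and was 0.48 ± 0.079 higher with Stat5a/b than with Stat3 siRNA. HLA-C rose by 0.33 ± 0.090 with Stat5a/b siRNA in CWR22Rv1 (adjusted p = 0.0406). No other heavy chain of the 5 measured was called against scramble in either line.

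Among 6 other peptidases, 1 rose in all 4 comparisons with scramble. TPP2, a cytosolic peptidase that trims proteasome products, rose by 0.30 ± 0.082 with Stat5a/b siRNA and by 0.36 ± 0.082 with Stat3 siRNA in CWR22Rv1, and by 0.29 ± 0.082 with Stat5a/b siRNA and 0.36 ± 0.082 with Stat3 siRNA in DU145. The cytosolic aminopeptidase LAP3, an interferon target, rose by 0.39 ± 0.050 with Stat5a/b siRNA in DU145, while NPEPPS fell by 0.24. BLMH fell by 0.24 with Stat3 siRNA in DU145. Among 10 other 20S subunits, Stat5a/b siRNA in DU145 raised 2 (PSMB2, PSMB3) and lowered 1 (PSMA5). Of all genes, 11.8% were called higher and 12.5% lower there. Stat3 siRNA in DU145 lowered 1 (PSMA7), where 8.25% of all genes were called lower. These are counts of few genes. In CWR22Rv1 none was called with either siRNA.

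Of the 8 regulators measured in DU145, Stat5a/b siRNA raised 3 and lowered 1, and Stat3 siRNA lowered 1. Of all genes there, 11.8% rose and 12.5% fell with Stat5a/b siRNA, and 7.51% rose and 8.25% fell with Stat3 siRNA. In CWR22Rv1, 1 rose with each siRNA, IRF2. Of all genes in that line, 3.16% rose and 3.30% fell with Stat5a/b siRNA, and 2.75% rose and 2.02% fell with Stat3 siRNA. IRF9, a transcription factor of the interferon response, measured 10.16, 10.22 and 9.97 with Stat5a/b siRNA, 9.08, 8.95 and 8.89 with Stat3 siRNA, and 9.06 ± 0.059 (SD, n = 3) with scramble in DU145. The rise with Stat5a/b siRNA was 1.06 ± 0.075 (adjusted p = 7.3e-08). RFXAP rose there by 0.66 ± 0.11 as well. IRF2 rose by 0.67 ± 0.077 with Stat5a/b siRNA and by 0.43 ± 0.077 with Stat3 siRNA in CWR22Rv1, and by 0.37 ± 0.077 with Stat5a/b siRNA in DU145. RFXANK fell by 0.20 and by 0.26 with Stat5a/b and Stat3 siRNA in DU145. The type I interferon receptor subunit IFNAR1 changed by -0.62 with Stat5a/b siRNA in CWR22Rv1, by -1.22 with Stat5a/b siRNA in DU145 and by 0.47 ± 0.078 with Stat3 siRNA in DU145, each past the test. Of the 7 receptors and kinases, Stat5a/b siRNA raised 0, and lowered 4 in DU145 and 1 in CWR22Rv1. Stat3 siRNA raised 3 and lowered 1 in DU145, and raised 0 and lowered 2 in CWR22Rv1. In DU145 IFNAR2 and JAK1 changed by -0.29 each with Stat5a/b siRNA, and by 0.32 and 0.31 with Stat3 siRNA. The type II receptor subunit IFNGR1 changed with Stat3 siRNA by -0.55 in DU145 and by -0.25 in CWR22Rv1.

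Interferon-stimulated genes outside presentation rose with Stat5a/b siRNA in DU145, 22 of 30 with 2 lower and a median change of 0.83. Of all genes, 11.8% were called higher and 12.5% lower there. CMPK2 rose there by 2.47 ± 0.14, XAF1 by 1.54 ± 0.15, PARP9 by 0.90 ± 0.092 and USP18 by 0.85 ± 0.081. In the same comparison the 9 presentation genes had a median of -0.02 and all genes a median of 0.011. With Stat3 siRNA in DU145, 0 of the 30 rose and 5 fell, with a median of -0.26, where 7.51% of all genes rose and 8.25% fell. In CWR22Rv1, 0 of 30 were called with Stat5a/b siRNA, where 3.16% of all genes rose and 3.30% fell. With Stat3 siRNA 1 fell in that line, where 2.75% of all genes rose and 2.02% fell. Whether the 9 genes and the 30 genes differ was not tested.

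Array by array, the mean of the 30 genes over scramble was 0.99, 0.97 and 0.52 with Stat5a/b siRNA, -0.14, -0.02 and -0.50 with Stat3 siRNA, and 0.04, 0.11 and -0.16 with scramble in DU145. Replicate 3 was the lowest of each group, as it was for PSMB9. In CWR22Rv1 the 9 arrays lay between -0.06 and 0.10. TAP1, which shares its promoter region with PSMB9, kept to 9.16 to 9.45 on all 9 DU145 arrays. With each line's mean taken off, r between TAP1 and PSMB9 over the 18 arrays was -0.10. The part of array 3 in these results beyond the values given without it was not tested.

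**Figure D5:**
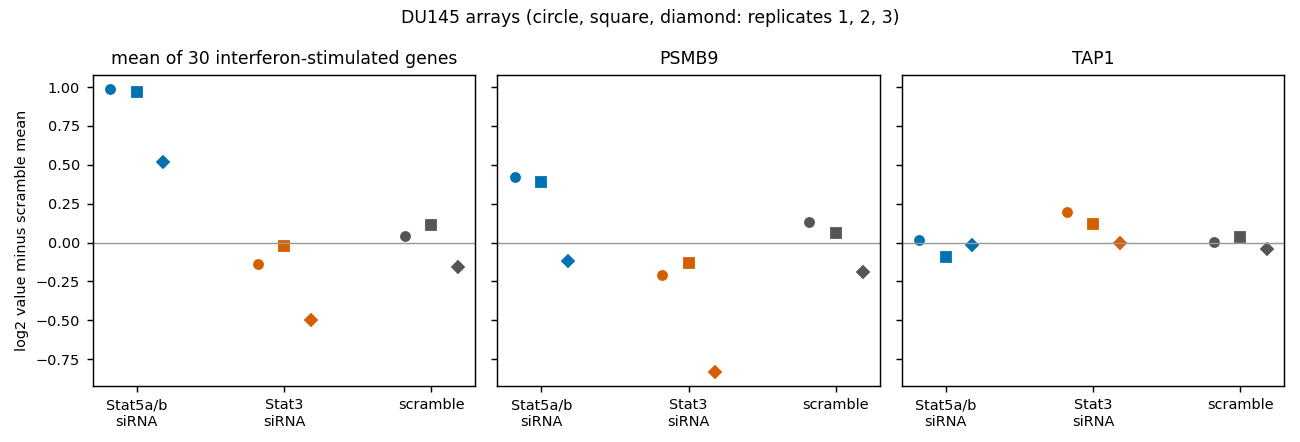
Log2 value minus the scramble mean (y axis) on the 9 DU145 arrays (x axis, siRNA groups; circle, square and diamond for replicates 1, 2 and 3), for the mean of 30 interferon-stimulated genes, PSMB9 and TAP1. The 30 genes stand at 0.52 to 0.99 with Stat5a/b siRNA, the diamonds of PSMB9 are the lowest of each group, and TAP1 keeps near 0.

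Class II genes fell with both siRNAs in DU145. With Stat5a/b siRNA 4 of 6 fell and 1 rose, where 12.5% of all genes fell and 11.8% rose. With Stat3 siRNA 4 of 6 fell, where 8.25% of all genes did. Under Stat5a/b siRNA the changes were -0.53 for HLA-DMA, -0.78 for HLA-DMB, -0.69 for HLA-DRA and -0.39 for HLA-DPA1. Under Stat3 siRNA they were -0.69 for HLA-DMA, -0.52 for HLA-DMB, -0.46 for HLA-DRA and -0.40 for HLA-DPA1. CTSS, a protease of class II loading, rose by 0.39 ± 0.096 with Stat5a/b siRNA. In CWR22Rv1 none of the 6 was called. Of 5 leukocyte markers, 1 moved with the class II genes: CD14 averaged 5.16 with Stat5a/b siRNA, 5.02 with Stat3 siRNA and 6.12 with scramble in DU145, and 4.26 to 4.31 in the CWR22Rv1 groups. In DU145 the other markers ran from 2.96 to 3.10 for PTPRC, 4.63 to 4.82 for CD3E, 5.04 to 5.37 for LAPTM5 and 5.11 to 5.30 for CD53. Dendritic and macrophage markers lay at 3.97 to 6.01 in CWR22Rv1 and 4.11 to 5.85 in DU145. The part of CD14, which moved likewise beside PSMB10, in these results was not tested.

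The genes whose pattern was most like that of TAP1, by Pearson correlation over the 18 arrays after each line's mean was taken off, were BAIAP2-DT (r = 0.896), FITM2 (0.869), BCKDHA (0.86), TPP1 (0.859) and NIPAL3 (0.831). For B2M they were ZDHHC11 (0.856), CKAP4 (0.832), EGFR (0.828), PLPP1 (0.823) and UQCR11 (0.813). They are the top of 19775 genes ranked on 18 arrays that share groups, and r has no test here. Between members, r ran highest for TAPBP with ERAP2 and for PSMB8 with PSMB9 (0.60 each) and lowest for PSMB10 with ERAP1 (-0.64).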

How the data were processed

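Total RNA was column-purified with DNase, labelled as biotin cRNA and hybridised to 18 arrays, 3 in each of 6 groups. The deposited values are log2 expression per probe set, running from 1.54 to 14.3, and RMA and limma are named, with no version, per the submitters' processing notes. As a method RMA corrects background, quantile-normalises and summarises probes, so small changes of dim genes are compressed. No further scaling was applied. Of 54675 probe sets, 41091 had 1 gene symbol, 1801 several and 11721 none, and 62 were controls. Of the single-symbol ones, 41037 matched a RefSeq gene by Entrez ID. For each of 19775 genes the probe set with the highest mean was kept, and 10523 genes had more than 1. One model in limma 3.58.1 (R 4.3.3) had a mean per group and 9 comparisons, with 12 residual and 3.82 prior degrees of freedom, so the lines share 1 estimate of spread. P-values are two-sided and Benjamini-Hochberg adjusted over all genes, called under 0.05. The script was tested on simulated data. Alternatives were the mean of probe sets, quantile or loess scaling, a filter at mean 6, a trend with robust prior, each line alone, a replicate block and left-out arrays. The genes named are the 9 members, the siRNA targets, up to 4 called genes per list and comparison by adjusted p, the 5 genes most like TAP1 and B2M, and for the line difference genes chosen after their values were seen. Members and lists were chosen with earlier results of these data known. Whether replicate numbers mark pairs is not known. Same-number deviations of the DU145 Stat3 siRNA and scramble arrays correlated at 0.20, 0.16 and 0.33, and in no other comparison was every pair above 0.1. Deviations within a group sum to 0, so these values are not independent. The replicate block was fitted for all groups of both lines. The number of arrays limits precision.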

Additional observations from a re-analysis of the deposited data

Results flagged for a closer look

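The change with Stat5a/b siRNA differed between the lines for PSMB10 and for ERAP2, by the test of the difference itself. PSMB10 changed by 0.03 ± 0.075 in CWR22Rv1 and by -0.51 ± 0.075 in DU145, a difference of 0.54 ± 0.11 (limma, adjusted p = 0.00412), with 3 of 3 DU145 arrays below scramble. ERAP2 changed by 0.30 ± 0.11 in CWR22Rv1 and by -0.67 ± 0.11 in DU145, a difference of 0.97 ± 0.15 (adjusted p = 9.0e-04). The CWR22Rv1 arrays of ERAP2 lay at 2.86 to 3.51, near the bottom of the scale, where a fall might not have registered. Over the alternatives the adjusted p ran from 0.00119 to 0.0377 for PSMB10 and from 2.7e-04 to 0.0458 for ERAP2. With the mean of its 5 probe sets the ERAP2 difference was 0.34.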

How the results depend on the processing

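The counts of the 9 genes called kept within 1.5 times for DU145 and for the line difference under every alternative that changed the processing. In CWR22Rv1, where 1 gene was called in each comparison, they moved. For Stat5a/b siRNA the count was 0 with the mean of probe sets, and 2 with quantile normalisation, cyclic loess, the filter at mean 6, the intensity trend and each line fitted alone. For Stat3 siRNA it was 0 with the mean of probe sets, and 2 with the filter, the trend and the line alone. For Stat5a/b against Stat3 siRNA it was 0 with the mean of probe sets, 2 with quantile normalisation, the trend and the line alone, and 3 with cyclic loess and the filter. The difference of the Stat3 siRNA effects between lines, 0 genes called, gave 1 (B2M) with the trend. The cause was not tested. Leaving out arrays gave 0 to 1 genes in each CWR22Rv1 comparison, 3 to 4 in DU145 against scramble for both siRNAs, 2 to 4 for Stat5a/b against Stat3 siRNA in DU145, 0 to 0 and 2 to 2 for the differences of the Stat3 and Stat5a/b effects, and 9 to 9 between the lines. Of 1215 values of single genes under alternatives, 1129 kept direction and call, 29 gained a call, 16 lost one, 41 changed sign without a call in either setting, and 0 called values reversed. Over all genes, the calls differed by more than 1.5 times with the line alone: 2372 against 1277 for Stat5a/b siRNA and 2059 against 944 for Stat3 siRNA in CWR22Rv1, and 2877 against 4805 and 1549 against 3117 in DU145. For Stat5a/b against Stat3 siRNA they were 3775 against 2126 in CWR22Rv1 and 2379 against 4379 in DU145. Without replicate 3 of every group they were 500 for Stat5a/b siRNA, 237 for Stat3 siRNA and 1096 for one against the other in CWR22Rv1, and 157 against 593 for the difference of the Stat3 siRNA effects, which was 946 with the filter, 904 with the trend and 903 with the block. For the difference of the Stat5a/b siRNA effects 1513 against 2357 genes were called without replicate 3. Same-number arrays had deviations that correlated at -0.07 to 0.14 in CWR22Rv1 and 0.01 to 0.33 in DU145. With the replicate block the counts were 1, 1 and 2 in CWR22Rv1 (Stat5a/b siRNA, Stat3 siRNA, one against the other), 4, 4 and 4 in DU145, 2 for each difference of effects and 9 between lines.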
